A study of Mus musculus with 23 samples.

Results

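The samples described here were 8 colon samples from mice colonized with Bacteroides fragilis 638R with high bile salt hydrolase activity (BSHhigh), of 23 samples in the whole series. They were chosen by their labels alone. Of these, 4 were non-tumor colon collected after 12 weeks of colonization and 4 were labelled normal colon, collected after 2 weeks. All were male C57BL/6 mice of genotype Cdx2Apc f/w, in which a Cre transgene driven by a CDX2 promoter removes 1 floxed Apc allele in the colon epithelium, and all were 6 to 8 weeks old when a high-fat diet with 60% fat began. The bacterium was given by gavage after antibiotics in the drinking water. The study also took tumor tissue at 12 weeks, and the labels call the samples used here non-tumor. The labels do not say that each library came from its own mouse, so the p-values below measure the spread between these samples. The 2 and the 12 weeks differ in the mice, their age, the weeks on the diet and with the bacterium, the tissue label and any batch of sampling or sequencing. Neither the colon segment nor the wall layers taken are given in the sources used here. None of these can be told apart from colonization time.

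Bile salt hydrolase is the bacterial enzyme that removes the amino acid from conjugated bile acids, after which gut bacteria can convert them further. The colon wall is built of an epithelium that absorbs water, salt and bacterial fatty acids, a lamina propria with immune cells and vessels, and outer muscle coats with the enteric nervous system between them. Epithelial genes differ from the proximal to the distal colon. The Hox transcription factors keep a record of that axis, with low paralog numbers active further forward and paralogs of group 13 at the hind end.

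The libraries were alike in depth, with 14816679 to 15898917 estimated counts at 2 weeks and 13369559 to 17064730 at 12 weeks. Mitochondrially encoded genes took 8.53 to 15.9% of the counts at 2 weeks and 4.43 to 6.85% at 12 weeks, and the shares did not overlap (exact permutation test, two-sided, p = 0.0286, the smallest p that 4 against 4 allows). Component 1 of a principal component analysis, with 77.7% of the variance, put the groups on opposite sides of 0. Replicate 3 at 2 weeks lay nearest to the other group. Of 4 epithelial markers, Epcam, Cdh1 and Krt8 were not called between the groups, with log2 fold changes of -0.34, 0.20 and -0.75, and Cdx2 was called lower at -3.78. Of 4 colonocyte markers, Car1 (-6.07) and Krt20 (-1.46) were called lower, and Slc26a3 (-0.42) and Aqp8 (-0.65) were not called. Of 4 goblet cell markers, Fcgbp (1.40) and Tff3 were called higher, and the mucin Muc2 (-0.39) and Clca1 (0.55) were not called. Tff3 lay just over the fold threshold, and its call was lost under 10 of 18 alternatives. Epcam, Cdh1 and Muc2 had counts in all 8 libraries. The pancreatic acinar markers Cela2a, Prss2 and Cpa1 had between 0 and 4 counts over each group.

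The comparison of 12 against 2 weeks called 2334 genes higher and 1074 lower of 14638 tested, which is 15.9% and 7.34% of them. A gene is called here when edgeR's quasi-likelihood test gave an adjusted p under 0.05 and the log2 fold change passed 1 in either direction. Values are CPM, the estimated counts of a gene relative to the summed counts of its library, scaled for composition. The number after ± beside a log2 fold change is a standard error worked back from the test. It is the absolute log2 fold change divided by the square root of the test's F statistic. The median over all tested genes was 0.02, and 7476 genes had an adjusted p under 0.05 at any fold. Leaving out replicate 3 at 2 weeks gave 2576 and 1209 calls. Scaled by library size alone the split moved to 2895 higher and 759 lower, from 68.5% to 79.2% of calls in the higher direction, with the median over all genes 0.28 higher.

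**Figure D1:**
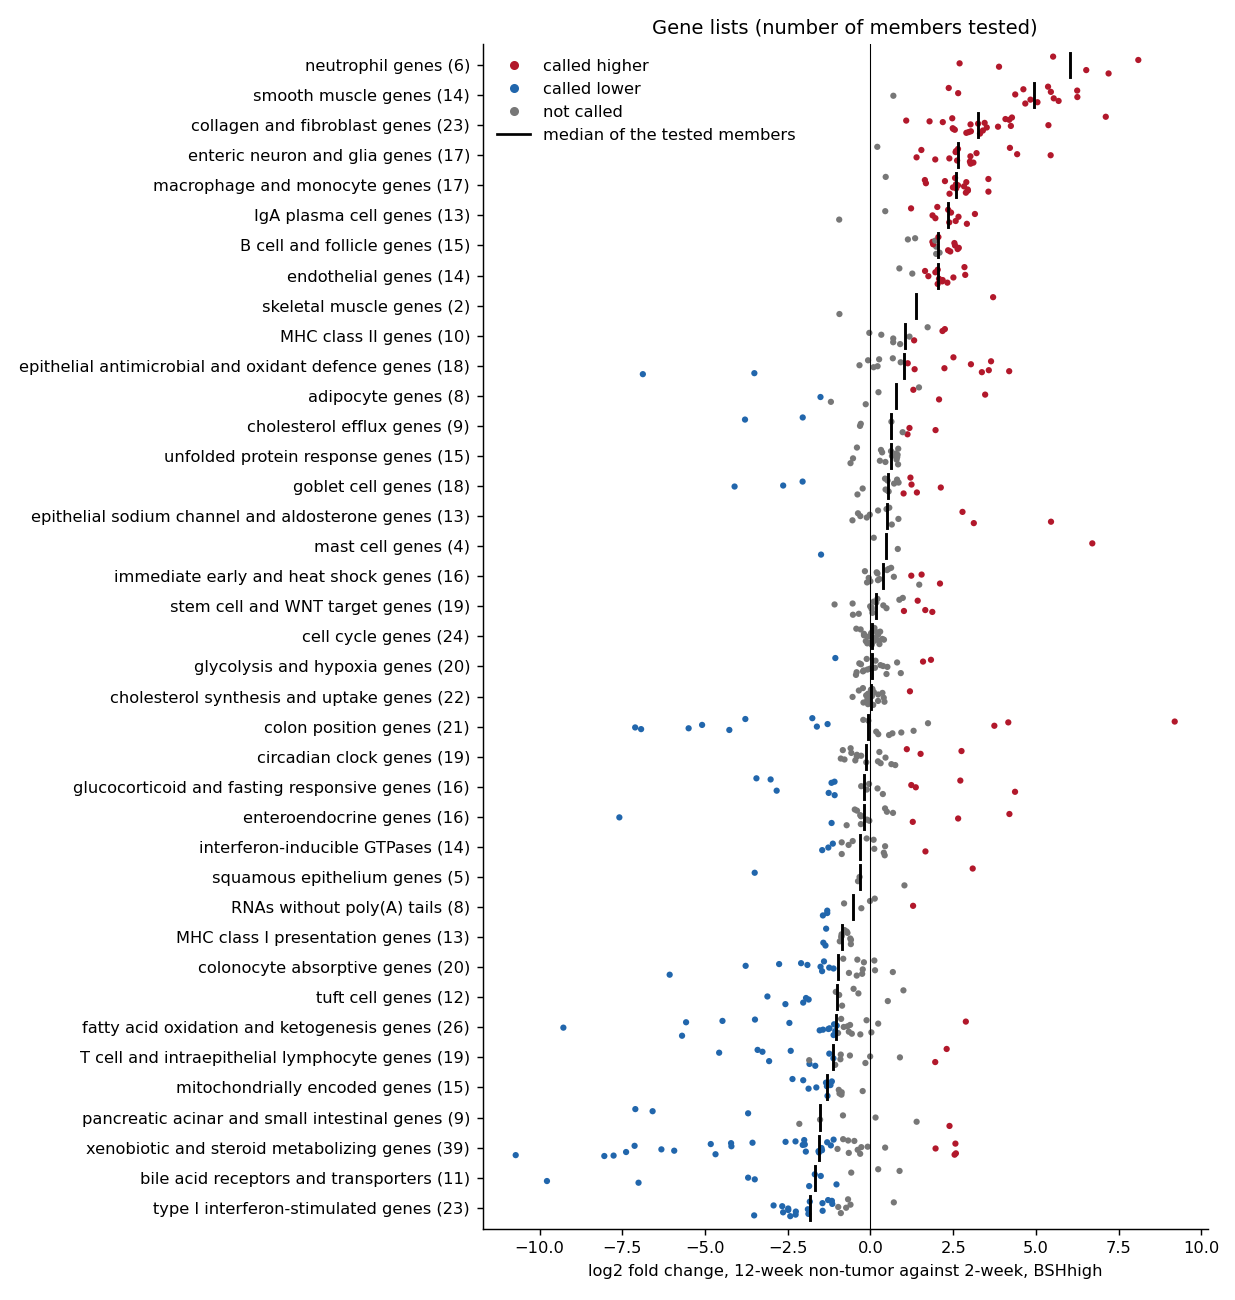
Log2 fold changes (horizontal axis) of the tested members of 39 gene lists (vertical axis, number tested in brackets), 1 point per gene, coloured by the call, with a bar at each list's median. The smooth muscle, collagen and neuron lists lie to the right with medians of 4.94, 3.25 and 2.65, and the interferon-stimulated, bile acid and xenobiotic lists to the left with medians of -1.83, -1.68 and -1.56.

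Hox genes differed by cluster and by paralog. Of the 39 Hox genes, 22 were tested, 3 were called higher and 9 lower. Hoxd13, the last gene of the Hoxd cluster (GRCm38, chromosome 2, 74668310 to 74671599, plus strand), was at 0, 0.458, 0 and 0.143 CPM at 2 weeks and 6.43, 131, 137 and 117 CPM at 12 weeks (log2 fold change 9.20 ± 1.24, adjusted p = 0.000324). Its 12-week level was lowest in replicate 1, which still lay above every 2-week library, and the call was lost with limma-voom. Hoxb13, its paralog in the Hoxb cluster, was at 54.5, 4.58, 51.4 and 1.87 CPM at 2 weeks and 337, 425, 378 and 363 CPM at 12 weeks (log2 fold change 3.74 ± 0.88, adjusted p = 0.00603). At 2 weeks it was high in replicates 1 and 3 and low in 2 and 4, and no 2-week library reached the 12-week range. Hoxd10 was called higher as well (log2 fold change 4.17 ± 0.94, adjusted p = 0.00504), with replicate 1 at 12 weeks at 0.447 CPM, inside the 2-week range. Hoxd11 and Hoxd12 had too few counts for the test in enough libraries: Hoxd12 was at 0, 0, 0 and 0.143 CPM at 2 weeks and 0.224, 4.11, 7.39 and 5.38 CPM at 12 weeks.

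Genes from the front and middle of the Hoxb cluster were lower at 12 weeks. Hoxb6 (GRCm38, chromosome 11, 96292476 to 96301569, plus strand) was at 32.8, 48, 18.2 and 47.4 CPM at 2 weeks and 0.559, 0.225, 0.167 and 0.202 CPM at 12 weeks (log2 fold change -6.93 ± 0.45, adjusted p = 1.39e-05). Hoxb8 was at 16.1, 28, 10.6 and 22.3 CPM at 2 weeks and 0.112, 0.282, 0.0556 and 0.0672 CPM at 12 weeks (log2 fold change -7.11 ± 0.48, adjusted p = 1.54e-05). The groups were far apart for both, and replicate 3 was the lowest of the 2-week libraries. Hoxb3, Hoxb4, Hoxb5 and Hoxb7 were also lower, with log2 fold changes of -4.68, -3.62, -4.27 and -5.50, and Hoxb9 was lower by less, at -1.62. In the Hoxd cluster Hoxd4 and Hoxd8 were lower, at -5.09 and -1.30. Counts of Hoxd4 were shared out among genes by the authors' estimation in 4 of the 8 libraries. None of the 8 tested Hoxa genes was called. Hoxa13 was at 24.2, 4.71, 33 and 4.09 CPM at 2 weeks and 39.9, 40.1, 44 and 38.6 CPM at 12 weeks (log2 fold change 1.30 ± 0.57, adjusted p = 0.0837), again with replicates 1 and 3 at 2 weeks close to the 12-week range. None of the 9 Hoxc genes had enough counts to be tested.

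**Figure D2:**
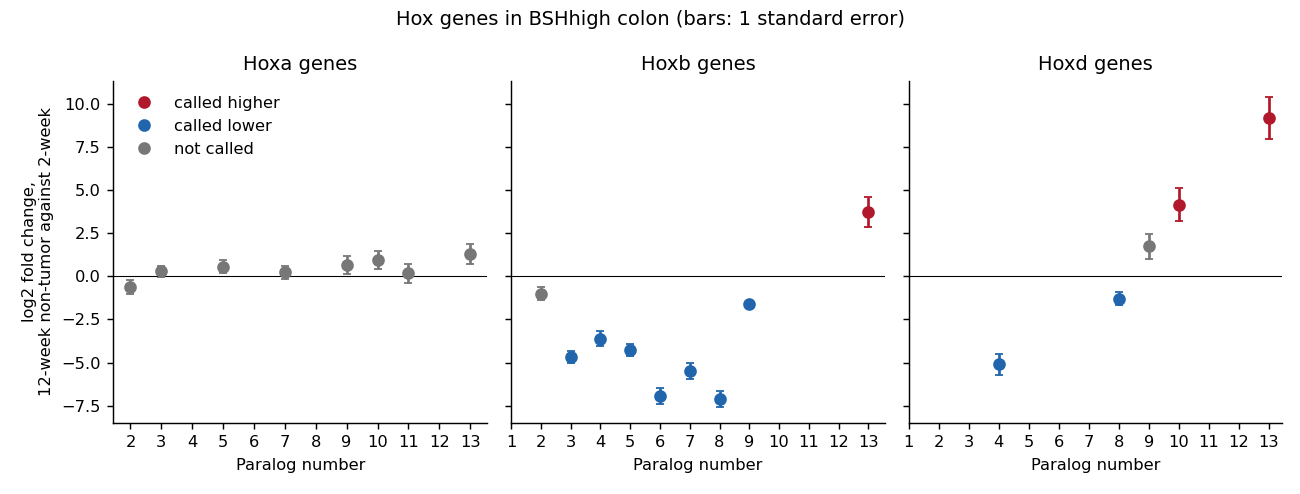
Log2 fold change of 12-week non-tumor against 2-week colon (vertical axis, bars 1 standard error) for the tested genes of 3 Hox clusters by paralog number (horizontal axis). Hoxb2 to Hoxb9 lie below 0 and Hoxb13 above, the Hoxd genes climb from -5.09 for Hoxd4 to 9.20 for Hoxd13, and the Hoxa genes stay between -0.62 and 1.30.

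Most colon position genes in the list (21 tested of 32) are the Hox genes described above. This list had 3 higher and 9 lower, beside 15.9% and 7.34% of all genes tested. Its median of -0.06 turned to 0.22 by library size scaling. All 3 higher genes and 7 of the 9 lower ones were Hox genes, the others being Cdx2 and Gata4. Without replicate 3 at 2 weeks 5 of the list were called higher. Cdx2, a homeobox factor that sets intestinal identity and whose promoter drives the Cre of this line (GRCm38, chromosome 5, 147300805 to 147307270, minus strand), was at 321, 371, 310.5 and 335 CPM at 2 weeks and 54.1, 14, 10.8 and 18.1 CPM at 12 weeks (log2 fold change -3.78 ± 0.48, adjusted p = 0.000235). Every 12-week library was below every 2-week one, and replicate 1 was the highest of them. Its paralog Cdx1 was at -0.22 and not called. Gata4, a factor of the proximal intestine, was lower at -1.76. Osr2, a zinc finger transcription factor, was at 101, 119.5, 47.8 and 124 CPM at 2 weeks and 0.0559, 0.620, 0.333 and 0.202 CPM at 12 weeks (log2 fold change -8.29 ± 0.48, adjusted p = 9.5e-06). The neuropeptide gene Nts was at 49.2, 55.5, 35 and 114 CPM at 2 weeks and 0.168, 0.733, 0.111 and 0.269 CPM at 12 weeks (log2 fold change -7.59 ± 0.56, adjusted p = 2.15e-05).

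Bile acid genes were lower at 12 weeks in 8 of the 11 tested (16 in the list), and none was higher. The list median was -1.68 against 0.02 for all genes. Slc10a2, the apical sodium-dependent bile acid transporter (GRCm38, chromosome 8, 5083219 to 5105351, minus strand), was at 566, 737, 204 and 869 CPM at 2 weeks and 2.18, 9.92, 3.11 and 3.09 CPM at 12 weeks (log2 fold change -7.01 ± 0.65, adjusted p = 5.33e-05). Slc51a, a subunit of the basolateral exporter OST, was at 274, 439, 138 and 456 CPM at 2 weeks and 0.0559, 1.24, 0.0556 and 0.0672 CPM at 12 weeks (log2 fold change -9.78 ± 0.74, adjusted p = 2.35e-05), and its partner Slc51b was lower at -3.50. The groups did not overlap for either transporter, and replicate 3 was again the lowest at 2 weeks. Fabp6, the bile acid carrier of enterocytes, was at 12.7, 97.8, 8.04 and 80.7 CPM at 2 weeks and 2.52, 3.10, 6 and 3.70 CPM at 12 weeks (log2 fold change -3.70 ± 0.81, adjusted p = 0.00421), with replicates 2 and 4 at 2 weeks well above 1 and 3. The call for Fabp6 was lost with limma-voom. The efflux pumps Abcc3 (log2 fold change -1.68 ± 0.08, adjusted p = 6.98e-06) and Abcc2 were lower too.

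Of the bile acid receptors, Nr1h4, which encodes FXR (GRCm38, chromosome 10, 89454234 to 89533585, minus strand), was at 125, 157, 95.6 and 171 CPM at 2 weeks and 42.9, 33.2, 37 and 38.6 CPM at 12 weeks (log2 fold change -1.85 ± 0.17, adjusted p = 5.6e-05). Vdr, the vitamin D receptor that also binds lithocholic acid, was at 731, 611, 473 and 675 CPM at 2 weeks and 293, 317, 339.6 and 272 CPM at 12 weeks (log2 fold change -1.03 ± 0.14, adjusted p = 0.000335). Vdr lay close to the fold threshold and its call was lost by library size scaling, by scaling to epithelial genes and without replicate 1 or 4 at 2 weeks. Gpbar1, which encodes TGR5, had too few counts for the test: it was at 0.0818, 0.262, 0.266 and 0.143 CPM at 2 weeks and 0.447, 0.620, 0.667 and 0.403 CPM at 12 weeks. The pregnane X receptor Nr1i2 (-0.58) and the constitutive androstane receptor Nr1i3 (0.88) were not called. Fgf15, Nr0b2, Abcb11 and Cyp24a1 were not tested because of low counts.

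Enzymes that handle drugs, steroids and other xenobiotics made up the longest list, with 25 lower and 4 higher of 39 tested (43 in the list) and a median of -1.56. Cyp2c55, a cytochrome P450 of the colon, was at 1532, 1508, 497 and 2299 CPM at 2 weeks and 4.08, 7.83, 9.56 and 0.336 CPM at 12 weeks (log2 fold change -8.05 ± 0.85, adjusted p = 9.71e-05). Cyp2c65 was at 745, 702, 389 and 991 CPM at 2 weeks and 2.46, 4.85, 4.11 and 1.41 CPM at 12 weeks (log2 fold change -7.77 ± 0.45, adjusted p = 9.5e-06), and part of its reads were shared out with a relative in 4 of 8 libraries. Cyp2c66 had 769 counts at 2 weeks and none at 12 weeks, at least 311-fold lower against a floor of 3 counts over the group, with shared reads in 4 libraries. The carboxylesterase Ces1g was at 221, 208, 86.3 and 271 CPM at 2 weeks and 1.73, 1.41, 1.5 and 0.874 CPM at 12 weeks (log2 fold change -7.13 ± 0.41, adjusted p = 9.5e-06). The glucuronosyltransferase Ugt2b5, which is in no list, was at 88.8, 118, 51.7 and 156 CPM at 2 weeks and 0.392, 0.338, 0 and 0.0672 CPM at 12 weeks (log2 fold change -8.93 ± 0.56, adjusted p = 1.26e-05). Aldh1a1, which makes retinoic acid, was at 550.0, 666, 242 and 619 CPM at 2 weeks and 23.7, 21.8, 13.3 and 14.2 CPM at 12 weeks (log2 fold change -4.83 ± 0.36, adjusted p = 2.16e-05). The 4 genes called higher were Adh1 (2.57), Cyp2f2 (2.58), Cyp2c68 (2.54) and Gsta3 (1.97).

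Fatty acid oxidation and ketogenesis genes were lower in 14 of 26 and higher in 1, with a median of -1.04. This median turned to 0.20 when libraries were scaled to the 4 epithelial genes Epcam, Cdh1, Krt8 and Cdx2, of which Cdx2 itself was called lower. That scaling moved the median over all genes by 1.25. With Cdx2 left out of the scaling genes the median over all genes moved by 0.29, and this list was at -0.77. Fabp2, the intestinal fatty acid binding protein, was at 1006, 1009, 857 and 1205 CPM at 2 weeks and 40.05, 22.7, 12.9 and 9.75 CPM at 12 weeks (log2 fold change -5.57 ± 0.45, adjusted p = 3.05e-05). Acads, the short-chain acyl-CoA dehydrogenase, differed by less (log2 fold change -1.54 ± 0.09, adjusted p = 1.13e-05). Ppara, the receptor that drives many of these genes, was lower at -3.49, and the fatty acid transporter Cd36 was the one called higher, at 2.88. Acaa1b, a peroxisomal thiolase, was at 79.1, 89.7, 11.1 and 59.3 CPM at 2 weeks and 0, 0.113, 0 and 0.269 CPM at 12 weeks, with reads shared with a relative in 6 libraries. Of the mitochondrially encoded genes, 10 of 15 were lower and none higher (median -1.30, -0.09 with the 4-gene scaling and -1.02 with Cdx2 left out of it), with mt-Rnr2 at log2 fold change -2.36 ± 0.38, adjusted p = 0.000826.

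Absorptive colonocyte genes were lower in 10 of 20, and none was higher (median -0.97, 0.26 with the 4-gene scaling and -0.68 with Cdx2 left out of it). Car1, a carbonic anhydrase with part of its reads shared out in 4 libraries, was at 8185, 11023, 5902 and 10943 CPM at 2 weeks and 78.2, 249, 154 and 54 CPM at 12 weeks (log2 fold change -6.07 ± 0.54, adjusted p = 4.38e-05). Guca2a, which encodes guanylin, was at 2642, 1879.8, 2386 and 2197 CPM at 2 weeks and 239, 189, 161 and 76.1 CPM at 12 weeks (log2 fold change -3.77 ± 0.32, adjusted p = 3.88e-05). The sodium-hydrogen exchangers Slc9a2 (log2 fold change -2.10 ± 0.13, adjusted p = 1.17e-05) and Slc9a3 (-2.76) were lower. The chloride exchanger Slc26a3 (-0.42), the water channel Aqp8 (-0.65) and Car4 (-0.25) were not called. In contrast, 2 subunits of the epithelial sodium channel were higher. Scnn1g was at 1.39, 1.31, 0.665 and 0.430 CPM at 2 weeks and 32.1, 59.6, 42.1 and 32.8 CPM at 12 weeks (log2 fold change 5.46 ± 0.34, adjusted p = 1.23e-05) and Scnn1b was at 5.65, 2.88, 7.38 and 3.52 CPM at 2 weeks and 38.3, 57.1, 39.2 and 34.4 CPM at 12 weeks (log2 fold change 3.12 ± 0.29, adjusted p = 5.28e-05). The third subunit, Scnn1a, was not called (0.64). The sodium channel and aldosterone list had 3 higher and none lower of 13 (median 0.48), beside 15.9% and 7.34% of all genes tested. The other higher member was the sodium pump modulator Fxyd4 (log2 fold change 2.78 ± 0.58, adjusted p = 0.00321).

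Muscle, nerve, collagen and vessel genes were higher at 12 weeks, and the wall layer they came from was not tested. Smooth muscle genes were higher in 13 of 14 with a median of 4.94, and their summed level was 158 to 333 CPM at 2 weeks and 3552 to 4632 CPM at 12 weeks. Synm, which encodes the intermediate filament protein synemin (GRCm38, chromosome 7, 67730160 to 67759742, minus strand), was at 0.327, 2.49, 2.13 and 1.65 CPM at 2 weeks and 136, 119, 154 and 109 CPM at 12 weeks (log2 fold change 6.25 ± 0.33, adjusted p = 7.85e-06). Actg2, the enteric smooth muscle actin, was at 0.491, 10.5, 10.6 and 4.23 CPM at 2 weeks and 584, 416, 596 and 403 CPM at 12 weeks (log2 fold change 6.25 ± 0.64, adjusted p = 8.57e-05). Des (5.69), Myh11 (5.05) and Acta2 (4.68) were higher as well, and Mylk (0.69) was the one not called. The 12-week libraries lay close together, while replicate 1 at 2 weeks had the lowest level of Synm and Actg2. In whole tissue, more cells of a type and more RNA per cell cannot be told apart.

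Enteric neuron and glia genes were higher in 16 of 17 tested (median 2.65). Their summed level was 10.9 to 17.2 CPM at 2 weeks and 71.5 to 122 CPM at 12 weeks. The low-count filter could let a gene pass on the 12-week group alone, here as in the other lists that were higher. Vip, the neuropeptide that relaxes gut muscle, was at 0, 0.393, 1.20 and 1.15 CPM at 2 weeks and 29.4, 41.6, 19.3 and 33.5 CPM at 12 weeks (log2 fold change 5.45 ± 0.51, adjusted p = 5.56e-05). The neuronal tubulin Tubb3 (log2 fold change 3.02 ± 0.33, adjusted p = 0.000111), the neuronal nitric oxide synthase Nos1 (4.43) and the glial filament Gfap (log2 fold change 4.22 ± 0.51, adjusted p = 0.00018) were higher, and Gfra3 (0.21) was not called. All 23 collagen and fibroblast genes tested were higher (median 3.25), with summed levels of 114 to 479 CPM at 2 weeks and 1875 to 2708 CPM at 12 weeks. Col4a2, a basement membrane collagen, was at 3.11, 7.53, 12.6 and 2.73 CPM at 2 weeks and 118, 73.2, 73.5 and 117 CPM at 12 weeks (log2 fold change 3.86 ± 0.44, adjusted p = 0.000142). Pi16, a marker of adventitial fibroblasts, had 3 counts at 2 weeks and 581 at 12 weeks, a ratio of 160 with a 95% counting interval of 54.4 to 777. Endothelial genes were higher in 12 of 14 (median 2.05), among them Vwf, the von Willebrand factor, at 2.78, 3.21, 3.32 and 2.30 CPM at 2 weeks and 25.8, 11.2, 17.6 and 30.4 CPM at 12 weeks (log2 fold change 2.86 ± 0.31, adjusted p = 0.000111).

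Other tissues were checked by their own genes. Adipocyte genes gave 3 higher and 1 lower of 8 tested (14 in the list, median 0.77). The defining Adipoq, Plin1 and Cfd were not tested, each at 0 in 2 of the 8 libraries, with group counts for Adipoq of 99 at 2 weeks and 380 at 12 weeks. The fat droplet gene Plin4 was at 0.164, 1.11, 3.19 and 0.789 CPM at 2 weeks and 20.4, 8.68, 8.23 and 22.5 CPM at 12 weeks (log2 fold change 3.47 ± 0.65, adjusted p = 0.00183), and Pparg, which is also active in colonocytes, was at 71.5, 79.7, 77.4 and 80.1 CPM at 2 weeks and 28.1, 27.6, 26.4 and 26.1 CPM at 12 weeks (log2 fold change -1.51 ± 0.07, adjusted p = 5.38e-06). Of 12 skeletal muscle genes 2 were tested, and Ckm, the muscle creatine kinase, was higher (log2 fold change 3.71 ± 0.75, adjusted p = 0.00291), while Acta1, the skeletal actin, was at -0.94 and not called. Squamous genes gave 1 higher and 1 lower of 5 tested (median -0.33, 0.86 with the 4-gene scaling, -0.06 with Cdx2 left out of it and 0.0086 without replicate 1 at 2 weeks), with the keratin Krt5 at 0 counts over the 2-week group and 14 over the 12-week group. Pancreatic and small intestinal genes gave 1 higher and 3 lower of 9 (median -1.52), with 5 lower without replicate 1 at 12 weeks, and the median turned to 0.063 without replicate 4 at 2 weeks and was -2.56 without replicate 2 at 12 weeks. The higher gene was Cela1, an elastase (log2 fold change 2.39 ± 0.33, adjusted p = 0.000391). The 3 lower genes were Fabp6, the disaccharidase Sis at 60.2, 119, 48.6 and 205 CPM at 2 weeks and 0.671, 2.99, 0.333 and 0.403 CPM at 12 weeks (log2 fold change -6.59 ± 0.72, adjusted p = 0.000111) and the intestinal alkaline phosphatase Alpi at 102, 109.6, 84.5 and 125 CPM at 2 weeks and 1.40, 1.13, 0.167 and 0.269 CPM at 12 weeks (log2 fold change -7.11 ± 0.39, adjusted p = 7.85e-06). The summed levels of the muscle, nerve and collagen lists separated the groups throughout, and their part in the differences of epithelial and immune genes was not tested.

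Antibody and macrophage genes were higher at 12 weeks. IgA plasma cell genes were higher in 11 of 13 tested, none was lower, and the median was 2.35. Igha, the IgA heavy chain, rose by 2.91 and the joining chain Jchain by 2.38 on the log2 scale, while the plasma cell marker Mzb1 was at 1.80, 3.01, 4.52 and 1.72 CPM at 2 weeks and 16.4, 9.47, 13.8 and 27 CPM at 12 weeks (log2 fold change 2.57 ± 0.40, adjusted p = 0.000646). Pigr, the epithelial receptor that carries IgA to the lumen, was at 2397, 2642, 2658 and 2068 CPM at 2 weeks and 6938, 4160.1, 5939.9 and 5809.9 CPM at 12 weeks (log2 fold change 1.23 ± 0.16, adjusted p = 0.000325). Macrophage and monocyte genes were higher in 16 of 17 (median 2.59). Csf1r, the receptor that macrophages need to survive, was at 2.70, 6.81, 5.32 and 2.73 CPM at 2 weeks and 32.8, 24.2, 35.8 and 38.2 CPM at 12 weeks (log2 fold change 2.88 ± 0.30, adjusted p = 8.44e-05). The complement gene C1qb (log2 fold change 2.83 ± 0.30, adjusted p = 9.89e-05) and the Fc receptor Fcgr3 (log2 fold change 3.56 ± 0.37, adjusted p = 9.33e-05) were higher too.

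Neutrophil genes passed the low-count filter in only 6 of 13, all 6 of them higher, with a filter that let a gene pass on the strength of the 12-week group alone. S100a8, a subunit of calprotectin, was at 0, 0.0655, 0.199 and 0 CPM at 2 weeks and 33.3, 7.49, 1 and 4.10 CPM at 12 weeks (log2 fold change 7.20 ± 1.38, adjusted p = 0.00215). The interleukin Il1b was at 1.15, 0.393, 0.532 and 0 CPM at 2 weeks and 59.7, 20.6, 5 and 7.93 CPM at 12 weeks (log2 fold change 5.52 ± 1.0, adjusted p = 0.00157). Replicate 1 was the highest of the 12-week libraries for both, and both calls were lost with limma-voom. Ly6g, a neutrophil surface marker that some other cells share, was at 61.7, 6.81, 30.2 and 25.8 CPM at 2 weeks and 226, 176, 199 and 201 CPM at 12 weeks (log2 fold change 2.69 ± 0.50, adjusted p = 0.00179). Mpo and Elane, which neutrophils make in the bone marrow, were not tested because of low counts. Mast cell genes gave 1 higher and 1 lower of 4 tested (10 in the list, median 0.46, and -0.47 without replicate 1 at 12 weeks): the chymase Cma1 had 3 counts at 2 weeks and 442 at 12 weeks, and the mucosal protease Mcpt1 was at 1.88, 2.16, 1.59 and 3.01 CPM at 2 weeks and 1.68, 0.507, 0.500 and 0.336 CPM at 12 weeks, a call lost without replicate 2 or 4 of either group or replicate 3 at 12 weeks.

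B cell and follicle genes were higher in 9 of 15 with a median of 2.05, but this rested on few libraries. Cd79a, a part of the B cell receptor, was at 4.34, 15.6, 2.33 and 4.38 CPM at 2 weeks and 12.6, 16.2, 91.7 and 22.6 CPM at 12 weeks (log2 fold change 2.41 ± 0.77, adjusted p = 0.0253). Replicate 3 at 12 weeks stood far above the others, and replicate 2 at 2 weeks lay within the 12-week range. Without replicate 3 at 12 weeks, or without replicate 1, 3 or 4 at 2 weeks, 2 of the 15 were called, Cd79a not among them, and without the first of these the median was 0.94. MHC class II genes were higher in 3 of 10 (median 1.04), and 1 was called when replicate 3 or 4 of either group was left out and 5 without replicate 2 at 12 weeks. H2-Eb1, a class II beta chain, was at 60.3, 56, 59.7 and 36.7 CPM at 2 weeks and 118, 73.7, 204 and 135 CPM at 12 weeks (log2 fold change 1.32 ± 0.28, adjusted p = 0.00399).

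T cell and intraepithelial lymphocyte genes went the other way in part, with 9 lower and 2 higher of 19 tested (median -1.12, 0.14 with the 4-gene scaling and -0.85 with Cdx2 left out of it). Gzma, which encodes granzyme A, was at 16.1, 16.8, 6.18 and 32 CPM at 2 weeks and 0.839, 1.13, 0.611 and 0.336 CPM at 12 weeks (log2 fold change -4.57 ± 0.54, adjusted p = 0.000166). Cd8a, the co-receptor of cytotoxic T cells, was at 10.7, 9.16, 6.05 and 15.6 CPM at 2 weeks and 1.51, 0.507, 2.33 and 0.538 CPM at 12 weeks (log2 fold change -3.06 ± 0.50, adjusted p = 0.00087), and the chemokine Ccl5 was at 22.3, 17.2, 11.9 and 36.7 CPM at 2 weeks and 2.07, 1.18, 3.84 and 1.08 CPM at 12 weeks (log2 fold change -3.41 ± 0.47, adjusted p = 0.000356). The groups did not overlap for any of these 3 genes. Of the 19 tested members of the list, 7 did not overlap, beside 48.6% of all genes tested. The helper cell co-receptor Cd4 (1.96) and the costimulator Icos (2.30) were the 2 higher members. Without replicate 3 at 12 weeks 14 members were called lower. Foxp3, the factor of regulatory T cells, had 11 counts in the 2-week group and 50 in the 12-week group, too few to test: it was at 0.164, 0.196, 0.399 and 0 CPM at 2 weeks and 0.336, 0.169, 1.67 and 0.739 CPM at 12 weeks, highest in the replicate that also led the B cell genes.

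Type I interferon-stimulated genes were lower in 17 of 23, with none higher and a median of -1.83. Interferon induces these antiviral genes through the factor ISGF3, which binds an interferon-stimulated response element (ISRE) in their promoters. Irf7, the factor that amplifies the response (GRCm38, chromosome 7, 141262706 to 141266481, minus strand), was at 365, 583, 356 and 401 CPM at 2 weeks and 91.2, 85.3, 65.3 and 62.2 CPM at 12 weeks (log2 fold change -2.49 ± 0.20, adjusted p = 2.77e-05). Ifit1, which binds viral RNA, was at 101, 214, 138 and 105 CPM at 2 weeks and 12.5, 19.6, 11 and 5.58 CPM at 12 weeks (log2 fold change -3.52 ± 0.38, adjusted p = 0.000105), with reads shared among relatives in 7 libraries. Replicate 2 at 2 weeks was the highest for both, and no 12-week library reached the 2-week range. Isg15 (-2.43), Usp18 (-2.67), Oas2 (-2.64) and Rsad2 (-1.89) were lower too. Among those not called were Stat2 (-0.98), Bst2 (-0.60), Oas1a (-0.90), Ifih1 (-0.68) and Ifi27l2a (0.71).

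Promoters are shown for 4 members that were lower and hold the response element and for 1 that holds it and was not called. RefSeq (GRCm38.p6) gave a promoter for 14 of the 23 genes, and the letters GAAANNGAAA stood on either strand within 250 bases before a start site in 7 of them, against 936 of 27025 genes with a promoter (3.46%). Of these 7 genes, 4 were called lower and 3 were not, and of the 7 without the letters 6 were called lower, so that most of the lower members with a promoter did not hold it. The stretches below lie upstream of the start site and are written in the direction of the gene, and capitals mark the matches, which can overlap or be read on the other strand.
Isg15 (chr4:156200862-156200921, minus strand): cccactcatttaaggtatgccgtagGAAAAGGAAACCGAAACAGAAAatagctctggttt
Ifit1 (chr19:34640760-34640819, plus strand): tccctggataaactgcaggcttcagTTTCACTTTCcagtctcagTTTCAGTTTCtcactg
Ifit3 (chr19:34583348-34583407, plus strand): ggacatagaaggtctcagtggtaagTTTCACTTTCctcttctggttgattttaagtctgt
Rsad2 (chr12:26456538-26456597, minus strand): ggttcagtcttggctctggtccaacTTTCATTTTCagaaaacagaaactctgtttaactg
Bst2 (chr8:71537568-71537627, minus strand): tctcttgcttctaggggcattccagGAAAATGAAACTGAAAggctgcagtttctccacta
The Isg15 stretch holds 3 overlapping matches and the Ifit1 stretch 2 separate ones. Bst2 is shown because it has 2 overlapping matches and was not called. For the smooth muscle genes, 10 of 14 had a promoter. These windows were searched for the strict form of the CArG box, the site of serum response factor: CC, then 6 letters A or T, then GG. None of them held an exact match, which 1.62% of genes with a promoter did. Sites that depart from these letters were not searched.

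Related immune lists moved less. MHC class I presentation genes were lower in 3 of 13, and none was higher (median -0.87, 0.36 with the 4-gene scaling and -0.59 with Cdx2 left out of it), and the groups did not overlap for any of the 13, as for 48.6% of all genes tested. H2-K1 (log2 fold change -1.36 ± 0.13, adjusted p = 6.12e-05) and B2m (log2 fold change -1.43 ± 0.22, adjusted p = 0.000675), the heavy and the light chain, were 2 of the 3, and reads of H2-K1 were shared with its relatives in all 8 libraries. Without replicate 1 at 12 weeks 6 were called, and without replicate 4 at 12 weeks 5. The interferon-inducible GTPases gave 1 higher and 3 lower of 14, beside 15.9% and 7.34% of all genes tested. Their median was -0.33, and it was 0.91 with the 4-gene scaling and -0.03 with Cdx2 left out of it. Gbp5 was higher (log2 fold change 1.66 ± 0.38, adjusted p = 0.00521), and Gbp6, with reads shared out in all 8 libraries, was lower (log2 fold change -1.46 ± 0.40, adjusted p = 0.0132). Without replicate 4 at 12 weeks 5 of these GTPases were called lower.

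Epithelial defence genes changed in both directions, with 9 higher and 2 lower of 18 (median 1.02). Reg3b, an antimicrobial lectin, was at 136, 2217, 677 and 1757 CPM at 2 weeks and 17.7, 9.19, 4.67 and 9.01 CPM at 12 weeks (log2 fold change -6.88 ± 0.90, adjusted p = 0.00028), and its neighbour Reg3g was lower at -3.51. Replicate 1 at 2 weeks was far below the other 3 for Reg3b and still above the 12-week range. Nox1, the NADPH oxidase of the colon, was at 3.44, 4.91, 8.51 and 3.73 CPM at 2 weeks and 79.9, 35.4, 59.8 and 85 CPM at 12 weeks (log2 fold change 3.64 ± 0.35, adjusted p = 6.59e-05). Nos2, the inducible nitric oxide synthase, was at 1.72, 3.99, 5.05 and 2.30 CPM at 2 weeks and 39, 28.2, 21.2 and 70.03 CPM at 12 weeks (log2 fold change 3.58 ± 0.45, adjusted p = 0.000217). The iron-binding lipocalin Lcn2 (4.19) and the phospholipase Pla2g2a (3.04) were higher, and the serum amyloid genes Saa1 (0.09) and Saa3 (-0.33) were not called. Reg4, a lectin of secretory cells, was at 23.1, 72.2, 62.9 and 38.9 CPM at 2 weeks and 279, 784, 478 and 496 CPM at 12 weeks (log2 fold change 3.37 ± 0.41, adjusted p = 0.000198).

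Secretory and sensory cells of the epithelium were mixed. Goblet cell genes gave 5 higher and 3 lower of 18 (median 0.53), beside 15.9% and 7.34% of all genes tested. Fcgbp, a mucus component, was at 2260.2, 1733, 2773 and 2197 CPM at 2 weeks and 7921, 5631, 4812 and 5338 CPM at 12 weeks (log2 fold change 1.40 ± 0.19, adjusted p = 0.00036), with reads shared out in all 8 libraries, and Spink4 was at 208, 192, 471 and 147 CPM at 2 weeks and 1223, 1127, 859 and 1231 CPM at 12 weeks (log2 fold change 2.13 ± 0.34, adjusted p = 0.000808). The lower genes were Ang4 (-4.11), Retnlb (-2.64) and Itln1 (-2.05), which encode antimicrobial proteins. Enteroendocrine genes gave 3 higher and 2 lower of 16 (median -0.20, and 0.07 by library size scaling), beside 15.9% higher and 7.34% lower of all genes tested. The granin Scg2 (log2 fold change 4.20 ± 0.45, adjusted p = 0.000108), which nerves also make, Pyy, peptide YY (log2 fold change 1.28 ± 0.20, adjusted p = 0.000638), and Insl5 (2.65) were higher, and Nts and Gcg (-1.18) were lower. Tuft cell genes were lower in 5 of 12 tested, and none was higher (median -0.998, 0.23 with the 4-gene scaling and -0.72 with Cdx2 left out of it). Trpm5, the cation channel of tuft cells, was at 37.9, 22.9, 24.3 and 32.6 CPM at 2 weeks and 4.98, 5.97, 4.28 and 4.50 CPM at 12 weeks (log2 fold change -2.57 ± 0.19, adjusted p = 2.16e-05), and Pou2f3, their master factor, was lower at -2.03.

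**Figure D3:**
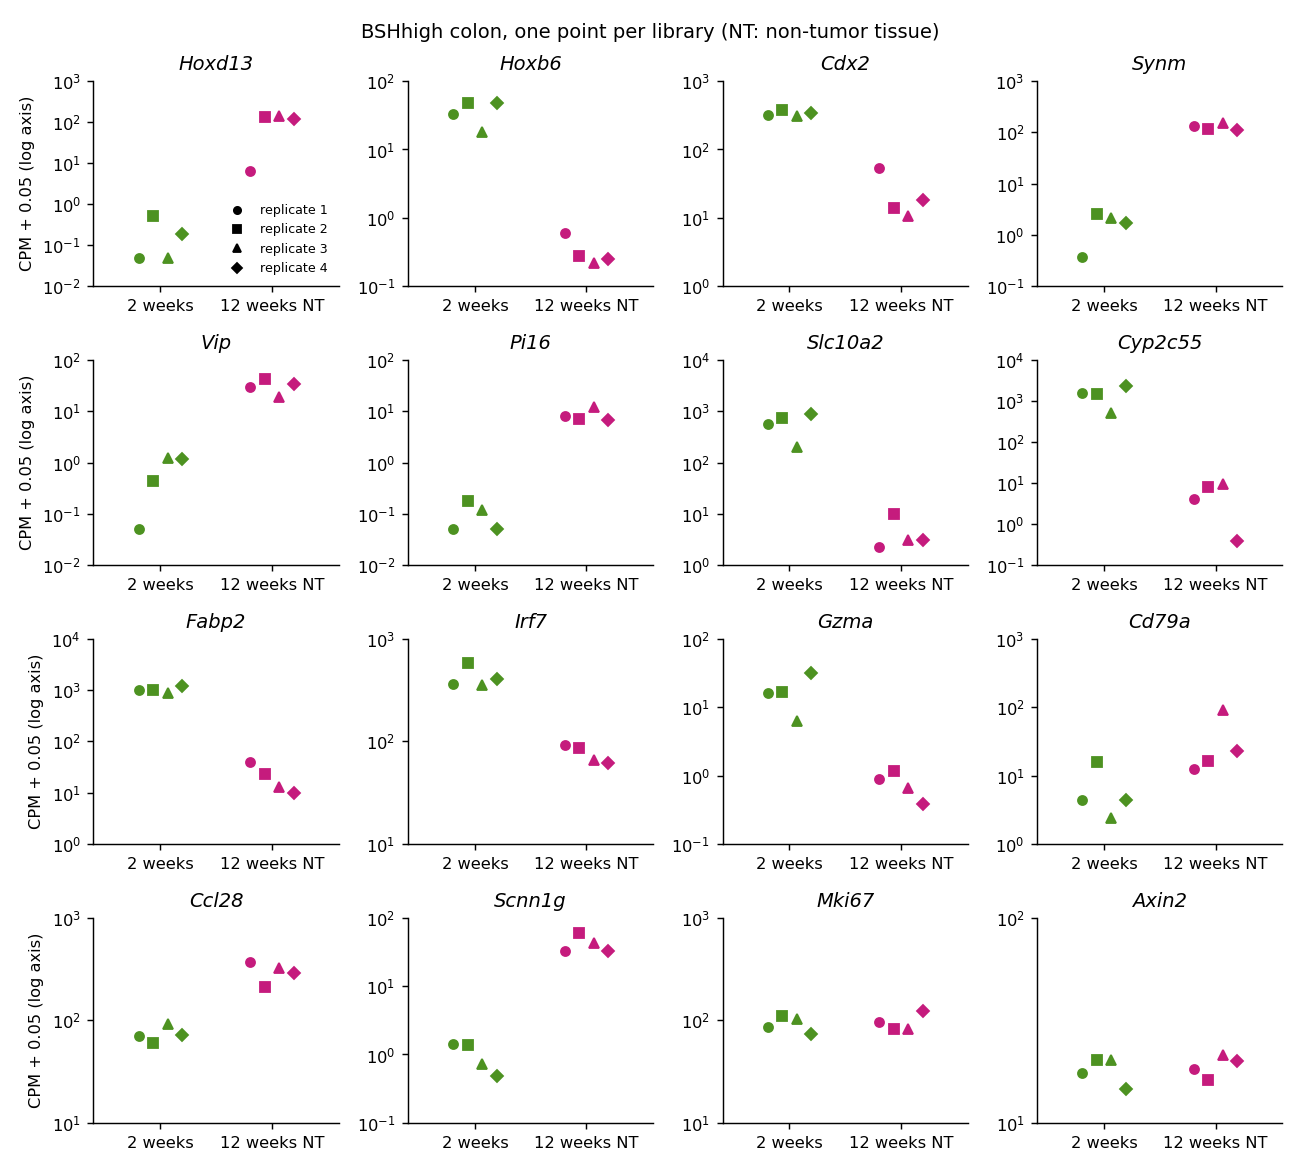
Levels of 16 genes in each of the 8 libraries (vertical axis, CPM plus 0.05, log axis), with 2-week libraries on the left, 12-week non-tumor libraries on the right and replicates by symbol. The groups do not overlap for Hoxd13, Hoxb6, Cdx2, Synm, Slc10a2 or Irf7, overlap for Cd79a, and lie at the same level for Mki67 and Axin2.

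None of 24 cell cycle genes was called: the fitted changes ran from -0.43 to 0.41 and the median was 0.06 (-0.11 without replicate 4 at 12 weeks). The 4-gene scaling called 22 of them higher, and the same scaling with Cdx2 left out called 0. Mki67, the proliferation marker, was at 86.6, 109.9, 103 and 73.7 CPM at 2 weeks and 96.9, 81.5, 82.8 and 122 CPM at 12 weeks (log2 fold change 0.04 ± 0.16, adjusted p = 0.858). Stem cell and WNT target genes gave 4 higher and none lower of 19 tested (median 0.17, and -0.01 without replicate 3 at 12 weeks), with 2 called without replicate 4 of either group. Of all genes tested 15.9% were called higher. The 4 higher members of the list were Smoc2 (log2 fold change 1.66 ± 0.23, adjusted p = 0.000357), Lrig1 (log2 fold change 1.01 ± 0.14, adjusted p = 0.000365), Nkd1 (log2 fold change 1.87 ± 0.29, adjusted p = 0.000686) and Apcdd1 (log2 fold change 1.43 ± 0.42, adjusted p = 0.0171), of which Nkd1 and Apcdd1 are WNT feedback inhibitors and Lrig1 lay at the fold threshold. The call of Lrig1 was lost without replicate 1, 2 or 4 of either group and that of Apcdd1 without replicate 4 of either group. Lgr5, the stem cell receptor, was at -0.53 and not called.

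The WNT targets that the study measured did not pass the test. Axin2 was at 17.5, 20.2, 20.2 and 14.6 CPM at 2 weeks and 18.3, 16.1, 21.3 and 19.9 CPM at 12 weeks (log2 fold change 0.06 ± 0.13, adjusted p = 0.736). Myc (log2 fold change 0.03 ± 0.13, adjusted p = 0.859) and Ccnd1 (log2 fold change -0.01 ± 0.17, adjusted p = 0.962) were as close to 0. Mmp7, a matrix protease, was at 4.99, 7.20, 3.39 and 4.59 CPM at 2 weeks and 5.87, 0.958, 0.889 and 1.75 CPM at 12 weeks (log2 fold change -1.09 ± 0.58, adjusted p = 0.145), with replicate 1 at 12 weeks inside the 2-week range, and it was called without that library (log2 fold change -2.11) and with limma-voom. Apc was at 103, 70.2, 60.3 and 85.2 CPM at 2 weeks and 78.5, 96.9, 104 and 91.6 CPM at 12 weeks (log2 fold change 0.22 ± 0.16, adjusted p = 0.279). A count over the whole gene does not show the loss of a part of 1 allele. Ccl28, the chemokine that draws IgA plasma cells and regulatory T cells (GRCm38, chromosome 13, 119623819 to 119654359, plus strand), was at 70.3, 60.6, 91.8 and 71.4 CPM at 2 weeks and 371, 213, 322 and 287 CPM at 12 weeks (log2 fold change 2.02 ± 0.18, adjusted p = 5.01e-05). All 4 libraries at 12 weeks lay above all 4 at 2 weeks.

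Genes of cholesterol synthesis, the unfolded protein response and glycolysis mostly stayed within the threshold. So did most of all genes tested, of which 15.9% were called higher and 7.34% lower. Of 22 cholesterol synthesis and uptake genes 1 was called, which was higher, and none was lower (list median 0.01). Cholesterol efflux genes gave 3 higher and 2 lower of 9 (median 0.63): the sterol exporters Abcg5 (log2 fold change 1.97 ± 0.36, adjusted p = 0.00168), Abcg8 (1.18) and Abca1 (log2 fold change 1.12 ± 0.26, adjusted p = 0.00584) were higher, and Npc1l1, the cholesterol importer (log2 fold change -3.79 ± 0.75, adjusted p = 0.00257), and Soat2 (log2 fold change -2.05 ± 0.43, adjusted p = 0.00367) were lower. Without replicate 3 at 12 weeks, 1 of the 3 was called higher. None of 15 genes of the unfolded protein response was called by fold, while 13 did not overlap between the groups, against 48.6% of all genes tested, and the median was 0.62, with the chaperone Calr at log2 fold change 0.35 ± 0.12, adjusted p = 0.0359. By library size scaling 6 of the 15 were called higher. Glycolysis and hypoxia genes gave 2 higher and 1 lower of 20 (median 0.06, and -0.01 without replicate 1 at 12 weeks), with Egln3 at log2 fold change 1.83 ± 0.18, adjusted p = 7.21e-05, Bnip3 at log2 fold change 1.59 ± 0.14, adjusted p = 4.28e-05 and Ankrd37 at log2 fold change -1.06 ± 0.17, adjusted p = 0.000707.

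Clock genes gave 3 higher of 19 and none lower (median -0.13, and 0.16 by library size scaling), near the 15.9% of all genes tested that were called higher. The 3 were Hlf (log2 fold change 1.51 ± 0.23, adjusted p = 0.000601), Bhlhe41 (2.75) and Rora (1.10), while Per2 (0.23), Dbp (-0.28) and Nr1d1 (0.45) were not called. Glucocorticoid and fasting responsive genes gave 4 higher and 7 lower of 16 (median -0.20, and 0.09 by library size scaling). The metallothionein Mt1, which binds zinc, was at 497, 397, 260.2 and 393 CPM at 2 weeks and 44.9, 38.5, 48.1 and 59.6 CPM at 12 weeks (log2 fold change -3.02 ± 0.21, adjusted p = 1.84e-05), Mt2 was lower with it (log2 fold change -3.45 ± 0.34, adjusted p = 6.82e-05), and the glucocorticoid receptor Nr3c1 lay near the threshold (log2 fold change -1.09 ± 0.14, adjusted p = 0.000224). Zbtb16, a transcription factor, was higher (log2 fold change 4.37 ± 0.46, adjusted p = 9.75e-05). Immediate early and heat shock genes gave 3 higher of 16 (median 0.39), namely Fosb, Nr4a1 and Dusp1, beside 15.9% higher of all genes tested. Of these genes 1 was called without replicate 2 of either group or replicate 4 at 2 weeks. RNAs without poly(A) tails gave 1 higher and 3 lower of 8 tested (median -0.54, 0.72 with the 4-gene scaling and -0.25 with Cdx2 left out of it), with Rn7sk at log2 fold change -1.44 ± 0.21, adjusted p = 0.000489. Rn7s1 and Rn7s2 had the same fitted values, and reads of both were shared out in 7 libraries.

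Among genes with a mean of at least 1 CPM and no overlap, several of those with the largest folds had almost no counts in 1 group. Krt17, a keratin, had 262 counts over the 12-week group and none at 2 weeks, at least 72.0-fold higher. Sfrp4, a secreted WNT antagonist, had 199 and none, at least 54.7-fold higher. Rims1, a presynaptic scaffold gene, had 849 counts against 3, a ratio of 233 (95% counting interval 79.6 to 1134). Angptl7 had 1038 against 3 (ratio 285, interval 97.4 to 1386), Chrdl2 had 453 against 2 and Gpr83 had 252 against 1. Cxcl2, a chemokine for neutrophils, had 832 against 2, of which replicate 1 at 12 weeks held the largest share at 32.6 CPM. Prg4, the lubricin gene, was at 0.0818, 0.131, 0 and 0.0717 CPM at 2 weeks and 0.671, 58.4, 0.945 and 1.21 CPM at 12 weeks, so that replicate 2 at 12 weeks made its mean, and its call was lost with limma-voom.

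On the lower side, Abca12, a lipid transporter, was at 88.6, 110.3, 65.8 and 119 CPM at 2 weeks and 0.168, 0.338, 0 and 0 CPM at 12 weeks (log2 fold change -9.43 ± 0.44, adjusted p = 5.38e-06). Slc13a1, the sulfate cotransporter, was at 148, 241, 82.5 and 260.4 CPM at 2 weeks and 1.40, 0.845, 0.500 and 0.336 CPM at 12 weeks (log2 fold change -7.85 ± 0.51, adjusted p = 1.39e-05). Adamts18 had 233 counts at 2 weeks and none at 12 weeks, at least 94.2-fold lower, and the pseudogene Apol10c-ps had 737 against 1, with reads shared out in 4 libraries. The genes with the smallest p among those of at least 50 CPM included Alpi and Synm, described above, and others with milder folds. Prpsap1 was at 169, 189.8, 138 and 166 CPM at 2 weeks and 32.7, 29.5, 33.2 and 30.8 CPM at 12 weeks (log2 fold change -2.39 ± 0.10, adjusted p = 5.38e-06), and Phgr1, a protein of surface epithelium, was at 662, 613, 653 and 713 CPM at 2 weeks and 169, 157, 143 and 133 CPM at 12 weeks (log2 fold change -2.13 ± 0.10, adjusted p = 5.38e-06). Myo7b (log2 fold change -1.86 ± 0.09, adjusted p = 5.38e-06) and Slc9a3r1 (log2 fold change -1.71 ± 0.09, adjusted p = 7.85e-06), parts of the microvillus scaffold, the receptor Epha1 (log2 fold change -1.35 ± 0.06, adjusted p = 5.38e-06), Abcb6 (log2 fold change -2.46 ± 0.13, adjusted p = 7.85e-06, with reads shared out in 7 libraries) and Pdlim2 (log2 fold change -2.38 ± 0.13, adjusted p = 9.3e-06) were lower in the same way.

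Among the higher genes of this kind, Spink1, a trypsin inhibitor, was at 245, 282, 312 and 307 CPM at 2 weeks and 1213, 1284, 1156 and 1379.8 CPM at 12 weeks (log2 fold change 2.13 ± 0.11, adjusted p = 7.45e-06). Csrp1, a muscle LIM protein, was at 25.8, 42.4, 64.7 and 32.6 CPM at 2 weeks and 465, 399.8, 468 and 417 CPM at 12 weeks (log2 fold change 3.40 ± 0.26, adjusted p = 2.5e-05), and Synpo2 was at log2 fold change 5.45 ± 0.30, adjusted p = 7.85e-06. The actin and adhesion genes Actn1 (log2 fold change 1.43 ± 0.11, adjusted p = 2.16e-05), Lpp (log2 fold change 1.14 ± 0.07, adjusted p = 1.07e-05) and Alcam (log2 fold change 1.45 ± 0.10, adjusted p = 1.8e-05), the tetraspanin Cd81 (log2 fold change 1.70 ± 0.12, adjusted p = 2.07e-05) and the glycerol kinase Gk (log2 fold change 2.46 ± 0.18, adjusted p = 2.08e-05) were higher in the same way.

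The same time comparison in mice with B. fragilis 638R of low enzyme activity (BSHlow, 4 against 4) called 2205 higher and 1104 lower of 14555 genes, 15.1% and 7.59%. Those libraries are not shared with the BSHhigh comparison, but the experiments and tissue labels are, so the 2 comparisons are not independent of batch. Of the BSHhigh calls tested in both strains, 1806 of 2164 higher genes and 797 of 1040 lower genes were called the same way in BSHlow (83.5% and 76.6%), which are 85.8% and 74.2% of the BSHlow calls. No gene was called in opposite directions. Across 14272 genes the fold changes had a Pearson r of 0.92, given as a description because genes are not independent replicates.

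The leading genes of these groups had the same direction in BSHlow. Hoxd13 had a log2 fold change of 10.13 there against 9.20, Hoxb8 -7.27 against -7.11, Cdx2 -4.63 against -3.78 and Slc51a -11.34 against -9.78. Hoxb13, for which BSHhigh replicates 1 and 3 at 2 weeks were high, was at 6.71 against 3.74. Smooth muscle genes were higher in 14 of 14 with a median of 5.25, collagen genes in 23 of 23 with 3.38, and bile acid genes lower in 6 with a median of -1.60. B cell and follicle genes were higher in 15 of 15 in BSHlow (median 3.32) against 9 of 15 in BSHhigh (2.05). MHC class II genes were higher in 8 of 10 (median 2.15) against 3 of 10 (1.04). Type I interferon-stimulated genes were lower in 7 of 22 tested in BSHlow (median -1.20) against 17 in BSHhigh, with Irf7 at -2.01 against -2.49. Goblet cell genes gave 0 higher and 4 lower in BSHlow (median -0.03) against 5 and 3 in BSHhigh (0.53). T cell genes were lower in 4 of 18 tested (median -0.33) against 9 of 19 (-1.12). Adipocyte genes gave 0 higher and 3 lower against 3 and 1. The cell cycle median was -0.62 against 0.06. Ccl28 was at 1.89 against 2.02.

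The difference between the strains was tested as an interaction over all 16 libraries. No gene of 15532 passed both thresholds (0.0% in either direction), the smallest adjusted p was 0.113, and 1135 genes had an unadjusted p under 0.05 (edgeR). Limma-voom also called 0 genes, while DESeq2 called 14 with the larger and 7 with the smaller value in BSHhigh. Reg4 and Fxyd4, named here after their values were seen, were among those of DESeq2. Reg4 had a difference of 3.13 ± 0.52 on the log2 scale with an adjusted p of 0.113 in edgeR, with BSHlow libraries at 177, 357, 456 and 193 CPM at 2 weeks and 379, 369, 326 and 318 CPM at 12 weeks. Fxyd4 had a difference of -6.53 ± 1.32 on the log2 scale with an adjusted p of 0.292. Its BSHhigh libraries were at 3.27, 1.83, 4.32 and 0.143 CPM at 2 weeks and 14.6, 22.9, 14.6 and 13.8 CPM at 12 weeks, and its BSHlow libraries were at 0, 0.153, 0.174 and 0.0646 CPM at 2 weeks and 23.8, 27.6, 50.4 and 151 CPM at 12 weeks. For Reg4 the adjusted p ranged over 19 alternatives from 3.85e-06 with DESeq2 to 0.378, with the difference between 2.84 and 3.37, and for Fxyd4 it ranged from 0.000487 to 0.803. No list held a member that passed this test in edgeR. List counts that differed, such as the larger interferon count in BSHhigh, are therefore not shown to be differences between the strains.

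**Figure D4:**
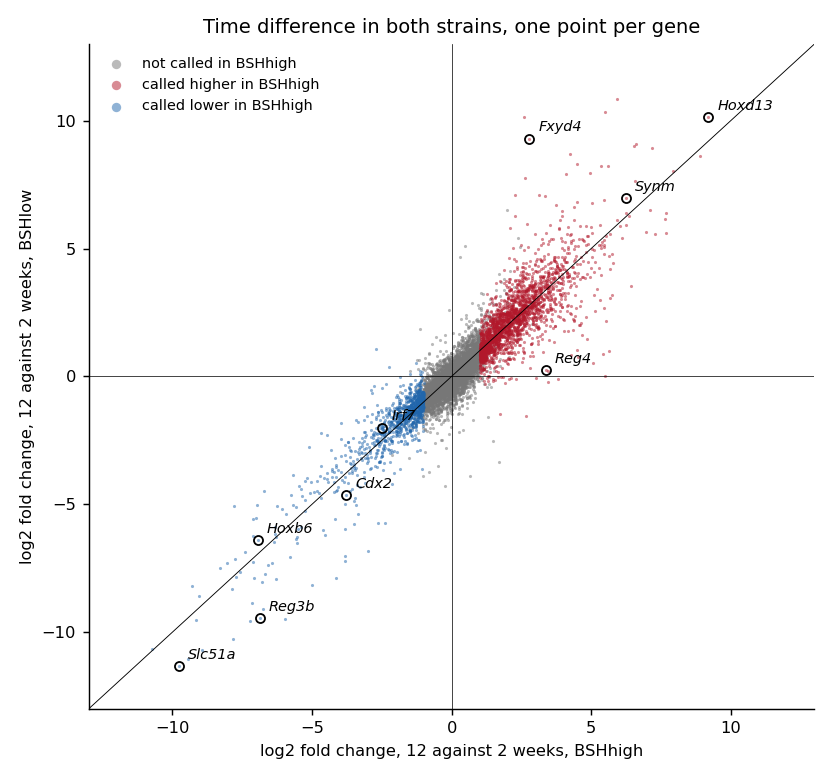
Log2 fold change of 12 against 2 weeks in BSHlow (vertical axis) against BSHhigh (horizontal axis), 1 point per gene tested in both, with the line of equal values and 9 genes named. Most points follow the line (r = 0.92 across 14272 genes), Reg4 lies below it and Fxyd4 above it.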

How the data were processed

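Colon RNA was sequenced in 23 samples, of which the 8 BSHhigh libraries at 2 and 12 weeks, and 8 BSHlow libraries set beside them, were used here; 7 tumor columns were not used. The deposited table holds estimated counts per gene that the authors made with RSEM after trimming with cutadapt and alignment with STAR, and Picard is named as well in the submitters' processing notes; the library preparation is called total RNA in the labels and mRNA in the study's methods, both stranded. All 55450 gene identifiers matched GENCODE M21 on GRCm38, which gave coordinates. Counts were rounded to whole numbers, and counts that were not whole mark reads shared among genes. Genes were filtered with filterByExpr, scaled with TMM and tested with edgeR 4.0.16 (R 4.3.3) quasi-likelihood on the 8 libraries, with Benjamini-Hochberg adjustment over all genes tested. CPM use the TMM-scaled library size. The interaction of time and strain was fitted on 16 libraries. Folds against a group at 0 use a floor of 3 counts over the group, and intervals are exact 95% Poisson intervals, and both cover counting error only. Alternatives used DESeq2 1.42.0, limma-voom (limma 3.58.1), RLE and library size scaling, other filters and designs, and each library left out. Scaling to epithelial genes was chosen after seeing the data.

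Genes named in the text were the 10 largest and 10 smallest-p calls in each direction, with at least 1 and 50 CPM, up to 4 calls per list, the highest member of a list with no call, and genes the study measured, apart from a few that are not reported here; further members of a list are given by their fold change only. Gene lists and members were chosen with earlier results of these data known. Promoters were searched on both strands within 250 bases before the start. Replicates were compared by chi-square, at 16.6 to 63.8 per degree of freedom, and none was a duplicate.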

Additional observations from a re-analysis of the deposited data

Results flagged for a closer look

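In 340 groups of 4 values, a Dixon test at the 95% level marked 28 single libraries as standing apart from the other 3. A test at that level marks some groups by chance, about 1 in 20, and the values are given as a description.

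Replicate 3 at 12 weeks was highest for B cell and follicle genes, with Cd79a at 91.7 CPM, Cd79b at 55.3, Ccr7 at 9.06 and H2-DMb2 at 45.9 CPM. At 2 weeks replicate 2 was highest for Cd79a at 15.6 CPM and for H2-Oa at 2.29 CPM. Outside that group, replicate 3 at 12 weeks stood apart for Sfrp4 at 5.22, Rims1 at 10.5, Chrdl2 at 0.667, Abcg5 at 21.5 and Ankrd37 at 21.7 CPM.

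Replicate 1 at 12 weeks stood apart for position genes. It was lowest for Hoxd13 at 6.43 CPM and highest for Hoxb6 at 0.559 and Cdx2 at 54.1 CPM, in each case on the side of the 2-week libraries. The same library was highest for Cxcl2 at 32.6, Mcpt1 at 1.68 and the histone gene Hist1h1e at 2.24 CPM.

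Replicate 2 at 12 weeks was highest for the absorptive genes Slc10a2 at 9.92, Slc51a at 1.24, Npc1l1 at 1.01 and Sis at 2.99 CPM, which were all lower at 12 weeks. It was also apart for Prg4 at 58.4 CPM and Fxyd4 at 22.9 CPM, and for Myc at 14.8 CPM. Replicate 4 at 12 weeks was apart for Col6a1 at 101 CPM. At 2 weeks, replicate 3 was apart for Smoc2 at 28.6 and Fcgr3 at 1.93 CPM, and replicate 2 for Ckm at 1.51 CPM.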

How the results depend on the processing

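Over 10 other settings and 8 fits with 1 library left out, the BSHhigh counts of higher and lower genes stayed within 1.5 times the reported ones except when libraries were scaled to Epcam, Cdh1, Krt8 and Cdx2, which gave 10141 higher and 327 lower and moved the median over all genes by 1.25. Without Cdx2 among the scaling genes the counts were 2945 and 763. Leaving out 1 library gave 2204 to 2576 higher and 1017 to 1237 lower genes. The strain interaction, with 0 calls in edgeR, gave 14 and 7 with DESeq2, and between 0 and 4 with the larger value in BSHhigh when 1 library was left out, 4 without replicate 3 of BSHhigh at 2 weeks. Of 163 called genes among the 170 named, 112 kept their call under every alternative run for them, which were 18 except for Chrdl2, Dsg3 and Prg4 with 17, since these did not pass the stricter filter. Some called genes turned direction, only under the scaling that includes Cdx2. Their log2 fold changes there were 0.027 for Gcg, 0.10 for Igtp, 0.16 for Nr3c1, 0.19 for Ankrd37 and 0.22 for Vdr. Ccnd1, which was not called, was at 1.25 under that scaling. The small fold changes of Ccnd1, Mki67, Axin2 and Myc, none of them called, also changed sign in fits with 1 library left out. The replicate numbers did not pair the samples: same-numbered deviations correlated at -0.02, -0.10, -0.21 and -0.10. A fit with the replicate block gave 2178 higher and 1030 lower, and 1 interaction call. Depth limited genes with few counts in 1 group, for which only bounds or wide intervals are given. Group sizes of 4, and the design in which time, age, tissue label and any batch move together, limit every comparison.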
